A study of Mus musculus with 2 samples.

Results

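The genes described here are Trp53, which encodes p53, its inhibitors Mdm2 and Mdm4, and 7 genes that p53 activates: Ccng1, Plk2, Zmat3, Trp53inp1, Aen, Phlda3 and Sesn1. They were taken by symbol from the deposited gene table, and all 10 were found, each in 1 row, among 23309 rows. Expression had been measured by RNA sequencing in bone marrow progenitors of Cebpaf/f;CreER mice, in which both copies of Cebpa are flanked by loxP sites and CreER, a Cre recombinase that acts once it binds 4-hydroxytamoxifen (4OHT), can remove them. Cells of both conditions came from lineage-depleted marrow, carried retroviral HA-Hoxa9 and Flag-Meis1, a pair of leukaemia-linked homeodomain proteins, and grew with IL3. One condition received ethanol, the vehicle, for 72 h and the other 5 nM 4OHT for 72 h. The sources used here do not give the promoter behind CreER or the number of mice. Each condition has 1 deposited sample that joins 2 replicates, which leaves 1 value per gene and condition and no replicate error to quote.

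p53 is a transcription factor that is made continuously and destroyed quickly. Mdm2 is the ubiquitin ligase that marks it for destruction, and Mdm4 is a relative of Mdm2 that blocks its activity. Kinases that sense broken or stalled DNA, and p19Arf, a product of Cdkn2a, free p53 from Mdm2. Stabilised p53 then raises genes for arrest, death, repair and stress defence, and also Mdm2 itself, which closes a feedback loop. Because p53 is controlled mainly at the protein level, the level of Trp53 RNA is not a measure of p53 activity, and its target genes are commonly read in its place.

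Values are in FPKM, that is, sequenced fragments per length of transcript and per amount of sequencing, so levels of different genes can be set side by side. The table holds no read counts, and its depth is therefore unknown. Cebpa fell from 109 to 42.8 FPKM, so 39.2% of the vehicle level remained (q = 0.00165 in the authors' deposited table). A gene is said to be called, to have risen or to have fallen, where the authors had tested its row and their table gave a q-value under 0.05. The p-values of that table come in steps of 5e-05, which is also the smallest, and it is in doubt that the Cuffdiff release named in the submitters' processing notes made them. There were 11953 tested rows, of which 335 rose and 372 fell, and 10989 rows were measured, meaning at least 1 FPKM in the higher condition. All 7 progenitor markers were measured. Kit, Cd34 and Flt3 rose, Runx1 had a higher value and Spi1, Ptprc and Myb lower ones that were not called. The list summed to 620 FPKM under vehicle and 836 FPKM under 4OHT, and without Cd34 to 336 and 343 FPKM. Of 12 monocyte and late neutrophil markers 11 fell, and their sum was 822 and 425 FPKM. Csf1r, at 2.84 and 2.55 FPKM, was the exception. T cell, B cell and erythroid markers each summed to under 1 FPKM in both conditions, and Cd3e, Cd3g, Cd4, Ms4a1 and Pax5 were listed at 0. Of 5 stroma markers only Pdgfrb was measured, and it rose from 6.62 to 13.3 FPKM. In bulk RNA, fewer cells of a type and less RNA per cell cannot be told apart, and the part of the changing mix of mature and early cells in the results below was not tested. Loss of Cebpa, Cre activity and 4OHT itself cannot be told apart either, since the same cells received all of them.

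Of the 10 genes, 1 rose after 4OHT, Trp53inp1, and none fell. Among all tested rows 2.8% rose and 3.11% fell, 5.91% together. All 10 were tested by the authors, and 9 reached 1 FPKM, the exception being Plk2. At an unadjusted p under 0.05 in the authors' deposited table there were 3 of the 10, Trp53inp1, Zmat3 and Sesn1, all higher after 4OHT, and 12.3% of all tested rows passed that threshold. Of the 10 genes, 5 differed by under 10% between conditions, namely Trp53, Mdm2, Mdm4, Phlda3 and Aen, a share near the 55.8% of all tested rows with so small a difference. The value after 4OHT was above that in vehicle cells for 9 genes and below it for Mdm4, and for all 10 once the conditions were scaled to the same total FPKM. Across tested rows as deposited, before any scaling, 50.3% were higher after 4OHT. That scaling raises the 4OHT value of every row, and the share of tested rows higher after it was not computed.

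**Figure D1:**
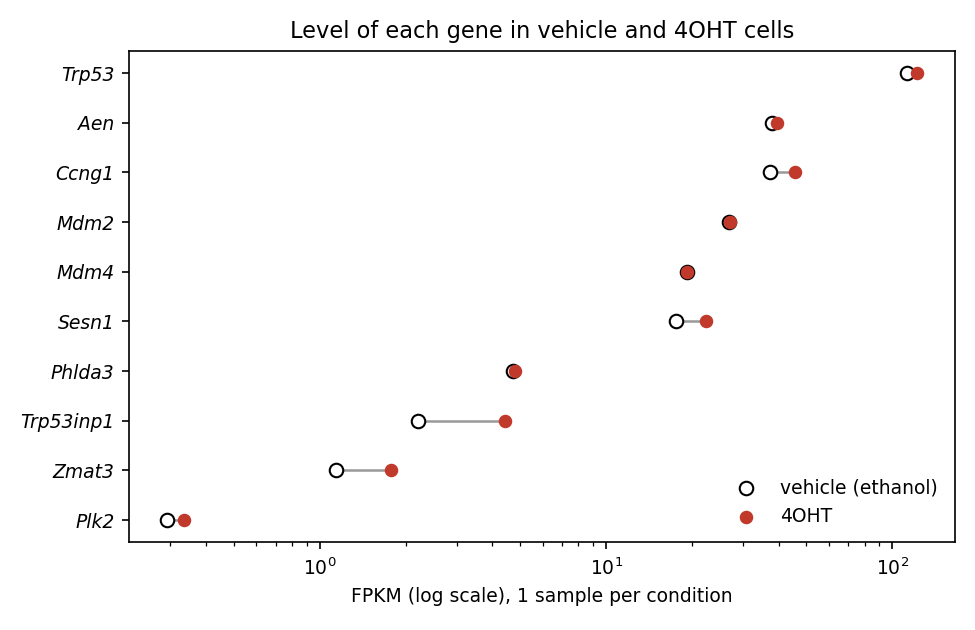
FPKM of each of the 10 genes on a log axis, with vehicle cells as open circles and 4OHT cells as filled circles, 1 sample each, ordered by the vehicle level. The symbols of Mdm2, Mdm4, Phlda3 and Aen lie nearly on top of each other, and the widest gap belongs to Trp53inp1, from 2.20 to 4.45 FPKM.

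Trp53 itself was the highest of the group. The vehicle sample had 112 FPKM and the 4OHT sample 122 FPKM, a difference of 9.69 FPKM and a log2 ratio of 0.12 between the plain FPKM values (p = 0.457 and q = 1.00 in the authors' deposited table). The vehicle level was above that of 91.5% of the measured rows, so p53 RNA was abundant in these transformed progenitors with or without 4OHT. On mm9 the row spans chromosome 11 from 69393861 to 69405375. Wrap53, a neighbouring gene that encodes a telomerase and Cajal body protein, ends 1034 bases below it in the table, at 11.3 and 10.2 FPKM. The sources used here do not say if strand was kept, so any antisense reads within a row cannot be set apart.

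The inhibitors Mdm2 and Mdm4 had the smallest relative differences of the group. Mdm2 had 27.0 FPKM with vehicle and 27.1 FPKM with 4OHT (p = 0.972 and q = 1.00 in the authors' deposited table), from chromosome 10, 117125961 to 117147772. Mdm4 was at 19.21 FPKM and 19.16 FPKM (p = 0.983 and q = 1.00 in the authors' deposited table), from chromosome 1, 134886422 to 134921925. Both inhibitor transcripts were thus nearly level between the conditions. FPKM of Mdm2 was 1.40 times that of Mdm4 in vehicle cells and 1.41 times after 4OHT. Trp53 stood at 4.17 times the FPKM of Mdm2 in vehicle cells and 4.51 times after 4OHT. Of tested rows, 96.7% had a log2 ratio at least as far from 0 as that of Mdm2, and 97.8% one as far as that of Mdm4.

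Without replicate values, the size of change that the authors' test called at a given level was used as a rough guide to precision. For each gene it was read from the tested rows whose higher value lay within 1.5-fold of its own. Among 2446 such rows around Mdm2 4.82% were called, and the smallest change called had a log2 ratio of 0.47 in size. Among 762 rows around Trp53 4.33% were called, and the smallest was 0.48. Around Mdm4 the smallest was again 0.47. No smaller change was called at these levels, and a q near 1 does not show that the levels were equal.

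Ccng1 and Plk2 are the genes of the group tied to the cell cycle. Ccng1 encodes cyclin G1, which recruits a phosphatase to Mdm2 and so feeds back on p53. Its 37.4 FPKM with vehicle compared with 45.6 FPKM under 4OHT, 21.8% more, a difference that was not called (p = 0.0757 and q = 0.530 in the authors' deposited table). Its log2 ratio of 0.28 compares with 0.49 for the smallest change called at that level. Ccng1 lies on chromosome 11 from 40562054 to 40568788. Plk2, a polo-like kinase of the centriole and of stress responses, was nearly silent, at 0.292 FPKM with vehicle and 0.335 FPKM under 4OHT (q = 1.00 in the authors' deposited table). It stayed under 1 FPKM in both conditions and so was not a measured row. Of all 23309 rows, 6829 were at 0 in both conditions. Changes called around the level of Plk2 had a log2 ratio of at least 0.89 in size, so the Plk2 row can show only a large shift.

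Trp53inp1 was the called gene. It encodes a stress-induced protein that works with p53 in cell death and also in autophagy. It went from 2.20 FPKM under vehicle to 4.45 FPKM under 4OHT, 2.02-fold higher (q = 0.00165 in the authors' deposited table, the smallest q there, which 363 tested rows share). The plain log2 ratio was 1.02, and with 1 FPKM added to each value, which understates the change of low genes, it was 0.77, and with 5 FPKM added 0.39. Of the measured rows, 98.5% had a lower log2 ratio on that second scale. Among 1581 tested rows of similar level 7.59% were called, with a median size of 1.01, so the change of Trp53inp1 was of ordinary size for a called row. The gene lies on chromosome 4 from 11083588 to 11101524. Its nearest named neighbours were not called, with Ndufaf6 at 9.54 and 10.6 FPKM and Ccne2, cyclin E2, at 14.7 and 13.3 FPKM.

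Aen and Phlda3 are the other members linked to cell death and showed little difference. Aen, a nuclease that helps to degrade DNA in dying cells, had 38.1 FPKM under vehicle and 39.5 FPKM under 4OHT (p = 0.742 and q = 1.00 in the authors' deposited table; chromosome 7, 86040813 to 86053719). Phlda3, which holds back the survival kinase Akt at the membrane, was at 4.74 FPKM and 4.81 FPKM (p = 0.927 and q = 1.00 in the authors' deposited table; chromosome 1, 137662662 to 137665711). The larger of these differences, that of Aen, was 3.75% of the vehicle value.

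Zmat3 and Sesn1 had higher values after 4OHT that did not pass the test. Zmat3, an RNA-binding zinc finger protein, had 1.14 FPKM under vehicle and 1.77 FPKM under 4OHT, a ratio of 1.56 (p = 0.00390 and q = 0.0618 in the authors' deposited table). Its plain log2 ratio was 0.64, just under the 0.67 of the smallest change called at similar level. The row spans chromosome 3 from 32233716 to 32266360, and a row for 4930429B21Rik, at 0.0260 and 0.143 FPKM, is listed at the same position, so reads of these overlapping transcripts cannot be assigned with certainty. Sesn1, a stress-induced inhibitor of mTORC1 that also limits oxidants, was at 17.5 FPKM and 22.3 FPKM, 27.8% higher (p = 0.0368 and q = 0.331 in the authors' deposited table; chromosome 10, 41530380 to 41628242). Its log2 ratio of 0.35 lay below the 0.47 of the smallest change called at its level. Cep57l1, which ends 705 bases below Sesn1, was at 7.31 and 7.41 FPKM.

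**Figure D2:**
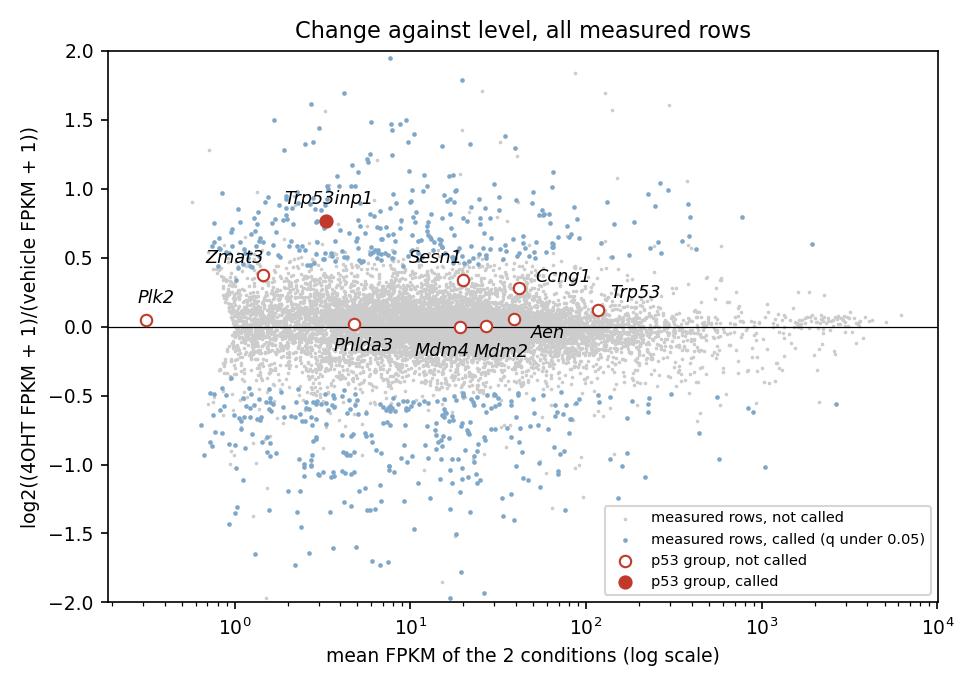
Each point is a row of the table, with mean FPKM of the 2 conditions on a log axis and the log2 ratio with 1 FPKM added to each value on the vertical axis. Measured rows are grey, called rows blue and the 10 p53 genes red, filled where called, and 79 measured rows beyond 2 in either direction are not drawn. Trp53inp1, at 0.77, lies among the called rows, and the other measured genes of the group lie among rows that were not called. Plk2, which is not a measured row, lies to the left of the grey and blue points.

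By level the 10 genes ranked in vehicle cells as Trp53, Aen, Ccng1, Mdm2, Mdm4, Sesn1, Phlda3, Trp53inp1, Zmat3 and Plk2. After 4OHT Ccng1 stood above Aen and Sesn1 above Mdm4, and the rest of the order was the same. With 1 value per condition, whether neighbours in either order differ beyond replicate spread cannot be said. Trp53 had 385 times the FPKM of Plk2 in vehicle cells and 364 times after 4OHT. Over the 10 genes the median log2 ratio with 1 FPKM added was 0.09. Over the 9 that were measured it was 0.12, against 0.00 over all measured rows. The FPKM of the 10 genes summed to 260 in vehicle cells and 287 after 4OHT.

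The DNA near the start sites gives a view of the group that does not depend on the values. p53 binds as a tetramer to a pair of 10-base units, each of which has a C and a G around a pair of letters that are A or T, with purines on the left and pyrimidines on the right. RefSeq promoter windows on GRCm38.p6, 250 bases before to 50 bases after a start site, were searched for this p53 decamer, which reads the same on both strands. Windows were at hand for 8 of the 10 genes, 11 windows in all, with none for Trp53inp1 and Zmat3. An exact decamer stood in a window of 5 genes, Trp53, Mdm2, Ccng1, Sesn1 and Aen. Of all 32851 windows 8.36% held one, and of 8135 measured genes with a window 7.94% had one in any window. None of the 8 genes with a window was called, so the search could not compare called with uncalled members. The 5 stretches are shown as a description of the sequence. They run 5′ to 3′ on the gene's strand, in GRCm38.p6 coordinates, with the decamer in capitals, or the adjoining pair for Ccng1.
Trp53, chr11:69580239-69580338, plus strand: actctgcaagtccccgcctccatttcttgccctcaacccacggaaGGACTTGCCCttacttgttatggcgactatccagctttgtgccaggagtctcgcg
Mdm2, chr10:117710890-117710989, minus strand: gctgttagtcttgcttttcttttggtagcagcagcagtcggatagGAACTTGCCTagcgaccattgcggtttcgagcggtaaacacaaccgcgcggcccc
Ccng1, chr11:40755417-40755516, minus strand: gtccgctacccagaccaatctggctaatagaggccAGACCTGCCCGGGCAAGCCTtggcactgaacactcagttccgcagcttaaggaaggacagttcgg
Sesn1, chr10:41887221-41887320, plus strand: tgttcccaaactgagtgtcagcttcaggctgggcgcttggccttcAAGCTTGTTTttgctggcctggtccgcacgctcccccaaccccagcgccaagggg
Aen, chr7:78895892-78895991, plus strand: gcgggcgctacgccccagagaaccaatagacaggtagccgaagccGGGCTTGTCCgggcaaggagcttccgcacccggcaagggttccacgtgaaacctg

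In Ccng1 the capitals begin 195 bases before the start site, and the 20-base pair departs from the p53 consensus at 1 base. Of all windows, 0.0883% held a pair with no spacer and as few departures. In Trp53, Sesn1 and Aen the best such pair departed at 3 bases, as few as in 6.29% of all windows, and in Mdm2 at 5 bases, a number met or bettered in 76.6% of them. Phlda3 and Plk2 held no exact decamer in these windows, and neither did the windows of Mdm4. In a window of Mdm4 the best pair nonetheless departed at 3 bases, as in Trp53, Sesn1 and Aen, and in its other window at 6. A match is a description of letters, and sites outside these windows, such as introns, were not searched. Among measured genes with a decamer in any window, 6.66% were called and the median log2 ratio was 0.01, against 5.70% and 0.00 among those without.

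The wider p53 pathway was read from lists chosen with earlier results of these data known, so their counts describe these samples and support nothing. Of all tested rows of at least 1 FPKM, 5.8% were called. Upstream, all 10 damage kinases and adaptors were measured and none was called, with none at an unadjusted p under 0.05 in the authors' deposited table. Their log2 ratios, with 1 FPKM added as for all lists, ran from -0.14 for Hipk2 (13.1 and 11.8 FPKM) to 0.13 for Atr, the kinase of stalled replication (8.37 and 9.25 FPKM), with a median of 0.07. Of 20 regulators of p53 or Mdm2 stability all were measured and none was called, with 1 at an unadjusted p under 0.05, and the median was 0.08. That gene was Cdkn2a, whose products include p19Arf, which holds Mdm2 in check, at 20.01 and 28.8 FPKM (q = 0.118 in the authors' deposited table). Its single row does not tell the transcripts of the gene apart. The lowest ratio, -0.09, was that of Prmt5, an arginine methyltransferase (62.6 and 58.6 FPKM).

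Among p53 paralogs, binding proteins and other genes named after p53, 7 of 10 were measured, 2 rose and none fell. There were 2 at an unadjusted p under 0.05 in the authors' deposited table, and the median was 0.16. Ppp1r13b, which encodes ASPP1, a cofactor that steers p53 towards death genes, rose from 4.25 to 8.15 FPKM. Trp53i11, named as a p53-induced gene, rose from 13.4 to 21.8 FPKM, and is counted here and not among the other targets below. Ppp1r13b and Trp53i11 both had q = 0.00165 in the authors' deposited table. The lowest ratio belonged to Wrap53, at -0.13. Of the paralogs, Trp73 was listed at 0 in both conditions and Trp63 was at or below 0.01 FPKM, so p53 was the only family member with appreciable RNA in either condition.

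The other p53 targets moved in both directions. Of 51 listed, 47 were measured, 3 rose, 2 fell and 42 were not called, so 10.6% of the measured ones were called, and the median log2 ratio was 0.09. At an unadjusted p under 0.05 in the authors' deposited table there were 8 of the 47, in either direction, and 12.3% of all tested rows. These were 2 arrest genes, 3 death genes and 3 of the metabolism list. Of 9 arrest genes 1 rose, Ccng2, the cyclin G1 relative cyclin G2, from 12.6 to 18.7 FPKM (q = 0.0285 in the authors' deposited table). Cdkn1a, which encodes the CDK inhibitor p21 and is the most used readout of p53 (chosen after its values were seen), was at 43.3 and 52.3 FPKM and not called (q = 0.588 in the authors' deposited table). Plk3 had the lowest ratio, with 4.23 and 3.95 FPKM, and the list median was 0.18.

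Among 13 measured death genes of 14 listed, 2 rose and 1 fell, with a median of 0.08. Bbc3, which encodes the BH3-only protein PUMA, rose from 8.86 to 14.2 FPKM (q = 0.0148 in the authors' deposited table). Bcl2l11, which encodes BIM, rose from 4.31 to 6.37 FPKM (q = 0.0479 in the authors' deposited table). Pmaip1, which encodes NOXA, fell from 27.1 to 14.1 FPKM, 1.92-fold (q = 0.00165 in the authors' deposited table). The BH3-only genes Bbc3, Bcl2l11 and Pmaip1 thus differed in direction. Bcl2l11 and Ccng2 are better known as targets of FoxO factors than of p53.

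None of 8 repair genes was called or had an unadjusted p under 0.05 in the authors' deposited table. The lowest ratio was -0.19 for Polh, a polymerase that bypasses ultraviolet damage (15.1 and 13.1 FPKM), and the median was 0.09. Of 17 measured genes of redox balance, metabolism, growth and autophagy, out of 20, none rose and 1 fell, with a median of 0.12. Tigar, which lowers glycolytic flux and is listed under the older symbol 9630033F20Rik, fell from 9.42 to 5.84 FPKM (q = 0.00165 in the authors' deposited table). Ulk1, a kinase that starts autophagy, had the highest ratio, 0.39, with 10.7 and 14.3 FPKM (q = 0.144 in the authors' deposited table). The sestrins Sesn2 (13.6 and 16.4 FPKM) and Sesn3 (1.61 and 2.00 FPKM), named here after their values were seen as relatives of Sesn1, also had higher values after 4OHT and were not called.

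**Figure D3:**
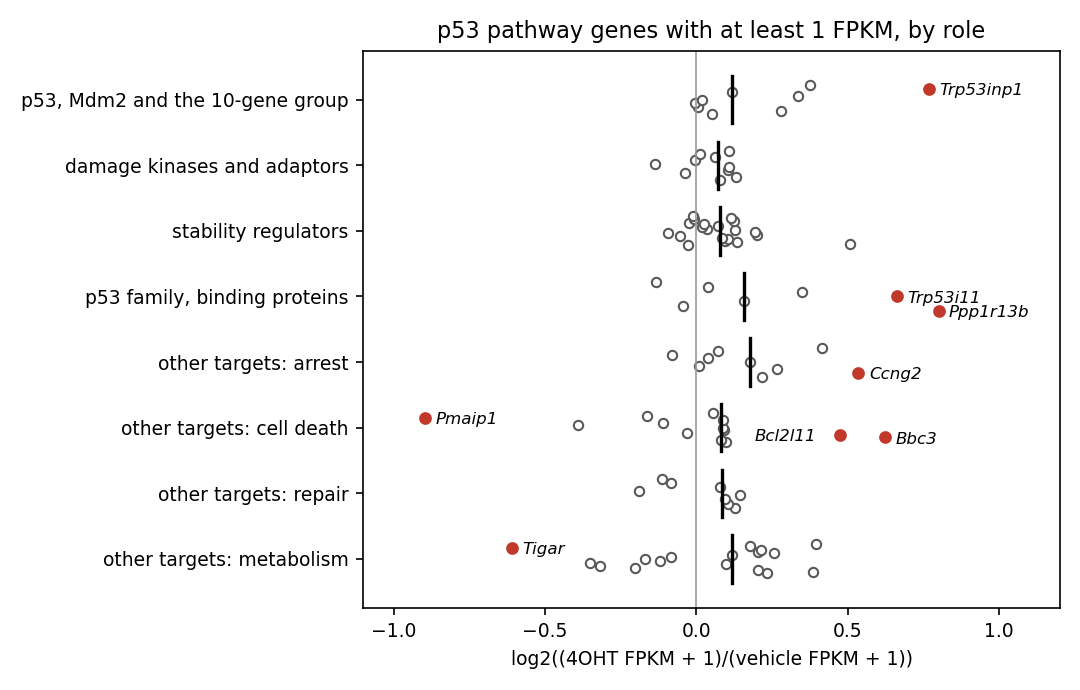
Log2 ratio with 1 FPKM added of each p53 pathway gene of at least 1 FPKM, 1 row per role, with called genes filled and named, other genes open and the median as a vertical bar. Medians lie between 0.07 and 0.18, and the called genes lie on both sides of 0, from Pmaip1 at -0.90 to Ppp1r13b at 0.80.

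Among 42 of the other targets with a RefSeq window, 10 held an exact p53 decamer, 23.8%. None of the 10 was called, which for so few genes is near the 6.66% of measured genes with a decamer that were called. They were Cdkn1a, Gadd45a, Gtse1, Ckap2, Bax, Siva1, Ei24, Polk, Rps27l and Abhd4, and their log2 ratios ran from -0.16 for Siva1 to 0.27 for Cdkn1a. At an unadjusted p under 0.05 in the authors' deposited table there were 0 of these 10, and 1 of the 5 decamer genes shown above, Sesn1.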

How the data were processed

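The analysis used 1 table of the whole series, with 1 FPKM value per gene for vehicle and for 4OHT cells, each joining 2 replicates per the labels. The build is mm9, and the tools listed are Cuffdiff 2.0.2, Bowtie2 2.0.0.7 and CASAVA 1.8.2, without their roles, per the submitters' processing notes. The annotation and the scaling between conditions are not given in the sources used here. FPKM values, a linear fold ratio, a test score, p-values and q-values were deposited by the authors, per the file headers. The deposited q-values equal a Benjamini-Hochberg adjustment over tested rows to within 5.28e-07. Log2 ratios were computed from FPKM with Python 3.11.15, numpy 2.4.6 and pandas 2.3.3, with a pseudocount of 1, and the ratio code was tested on simulated data. No test was run here, since there is 1 value per condition. Column names were matched to samples through the labels. Of 151 list entries 147 matched by symbol, 1 by an older symbol, 2 by a RefSeq synonym and 1 through a joined row. The members, the lists and the rule for naming genes (all 10 members, called list genes, and the highest and lowest ratio of each list) were chosen with earlier results of these data known. Deposited starts are written from 1. RefSeq promoter sequences are of GRCm38.p6 and were matched by symbol only. Some list genes are not reported here.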

Additional observations from a re-analysis of the deposited data

How the results depend on the processing

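No paired analysis was possible because each condition has 1 deposited sample. Leaving out a replicate was not possible for the same reason. With a q under 0.1, 2 of the 10 genes were higher, Trp53inp1 and Zmat3, beside 411 higher and 435 lower of all 11953 tested rows. With an unadjusted p under 0.05 in the authors' deposited table, 3 of the 10 were higher, and 12.3% of tested rows passed in either direction. Trp53inp1 was called under each of the 5 call rules tried, and no rule called a member lower. Over all rows, 205 were higher at a q under 0.01, and 741 were higher and 734 lower at an unadjusted p under 0.05. Of the 50 ratios of single genes recomputed with another pseudocount or scaling, 5 moved by more than 0.1 on the log2 scale, each with the pseudocount. Trp53inp1, at 0.77 with a pseudocount of 1, had 0.98 with 0.1 and 0.39 with 5, Zmat3 had 0.60 and 0.14, and Plk2 had 0.15 with 0.1. The scalings shifted all ratios by at most 0.02, which turned Mdm4 from -0.00 to 0.02. Depth is unknown, and of the 10 genes Plk2, the lowest, had the largest limit, since changes called near its level were at least 0.89 in size.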

Other observations

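Genes that share a family or a neighbourhood with the p53 group were mostly not called. Relatives already in the lists above were left out here, namely Ccng2, which rose, and Sesn2, Sesn3, Plk3 and Trp53inp2, which were not called. Of the 11 other relatives listed by family, 6 were measured, none was called, and none had an unadjusted p under 0.05 in the authors' deposited table. Their median log2 ratio was -0.01, from -0.10 for Plk1, the mitotic polo-like kinase (54.1 and 50.3 FPKM), to 0.13 for Isg20, an exonuclease related to Aen (13.99 and 15.4 FPKM). Isg20 also lies 4931 bases above Aen on mm9 chromosome 7. Plk1 and Plk4, which were at 54.1 and 24.3 FPKM in vehicle cells, stood far above Plk2.

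Among the nearest named rows on either side of the 10 genes, 1 was called. Gapt, a membrane adaptor of blood cells that lies 37871 bases below Plk2 on chromosome 13, fell from 19.01 to 12.2 FPKM (q = 0.0130 in the authors' deposited table). Slc35e3 and Csrp1, beside Mdm2 and Phlda3, were at 7.14 and 7.53 FPKM and at 60.3 and 60.4 FPKM. Pik3ca, above Zmat3 on chromosome 3, was at 8.80 and 9.79 FPKM.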
